A study of Arabidopsis thaliana with 12 samples.

Results

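Transcripts of 6 nuclear genes for mTERF proteins (AT1G61990, AT1G62010, AT1G62150, AT1G79220, AT3G18870 and AT3G46950) were followed in wild-type Arabidopsis thaliana of the Landsberg ecotype held in blue light of 20 µE or 200 µE, µE being the customary shorthand for a photon flux. Exposure lasted 48 h in both groups, and each group had 6 samples of total RNA, numbered 1 to 6. The 6 genes were a given list, chosen with earlier results of these data known, and the array's annotation gave each of them a probe that named it alone. They are 6 of the 691 genes with such a probe, on a table of 3439 probes. A further 2 mTERF genes with such a probe, AT5G55580 and AT4G09620, were not on the list. They did not pass the test used below, which is made after quantile normalisation, and their direction followed the scaling. The labels name neither a tissue nor an age, and do not say how many plants made up a sample. All plants carried the same genotype, and no darkness or other light colour served as a control, so the comparison is of brighter against dimmer blue light.

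The mTERF proteins are named after the mitochondrial transcription termination factor of animals. In plants they form a large family of nuclear-encoded proteins, built of repeated helical motifs that bind nucleic acids, which are imported into chloroplasts or mitochondria. Characterised members act in the transcription, termination, intron splicing or translation of organelle genes, and several are needed for normal chloroplast development. No individual role is given below for the 6 genes. In the TAIR10.1 gene table AT1G61990, AT1G62010 and AT1G62150 lie close together on chromosome 1, in a stretch rich in the family. There 1 other protein-coding gene starts between AT1G61990 and AT1G62010, and 12 start between AT1G62010 and AT1G62150, of which 3 are on the family list used here. AT1G79220 lies elsewhere on that chromosome, and AT3G18870 and AT3G46950 lie on chromosome 3.

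Values are intensities in arbitrary units, and levels of different probes are not set against each other. Column means lay within 0.814 to 1.04 units over all 12 columns. Column medians were 0.401 to 0.574 units at 20 µE and 0.171 to 0.218 units at 200 µE, and 12.4 to 18.3% of each column's values were listed at 0. Because of that difference in medians each gene is given in deposited units, as its percentile among the 3439 probes of a column, and on the log2 scale after quantile normalisation, where all columns are given one distribution. Within a group, neighbouring columns (1 with 2, 3 with 4, 5 with 6) resembled each other more than other columns did, so each such couple was also averaged. Means ± SD are over these 3 couple means, and a gene is said to have fallen or risen only where it passed limma's test (adjusted p under 0.05 over all 1561 tested features) both over 12 columns and over couple means. Nothing in the labels says that the samples came from separate plants, so that p-values measure a spread that may be partly technical.

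Of the 6 genes, AT1G79220 and AT3G46950 fell at 200 µE by both tests, neither of which pairs the columns. With the couple number as a block neither gene passed (limma, adjusted p = 0.057 and 0.061). AT1G61990, AT1G62010 and AT1G62150 measured lower and AT3G18870 higher at 200 µE, past the threshold over 12 columns alone, but AT1G62150 turned to the other direction under median centring. In deposited units, in percentile and after quantile normalisation, no 200 µE column of any of the 6 overlapped the 20 µE columns. Over 12 columns 6 of 6 genes passed (limma), against 49.5% of all tested features, with 5 lower and 1 higher where 26.3% of features were lower and 23.1% higher. Over couple means 2 of 6 passed, both lower, against 20.6% of all features (10.7% lower, 9.93% higher). Of all 8 mTERF genes with a probe of their own, 5 were lower and 1 higher over 12 columns, and 2 were lower over couple means. As the list of 6 was chosen with earlier results known, its counts beside these shares are a description and no test of the family. When couples were compared pair by pair, 0 of 6 passed (limma; 4 at an unadjusted p below 0.05), against 15.5% of all features. Once features listed at 0 throughout were left out, 3 of 6 passed there, against 27.2% of the features kept. Columns did not overlap for 48.4% of all features in deposited units (43.5% lower, 4.87% higher), for 42.9% in percentile and for 32.7% after quantile normalisation. The median log2 change of the 6 genes was -1.35 after quantile normalisation, against 0 over all features. It was -1.92 against -1.46 without normalisation, and -0.57 against -0.11 under median centring, where 4 of the 6 were lower and 2 higher. Over all 8 mTERF genes with a probe of their own it was -0.99 after quantile normalisation. As RNA of whole samples was measured, fewer cells that hold a transcript and less of it per cell cannot be told apart.

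**Figure D1:**
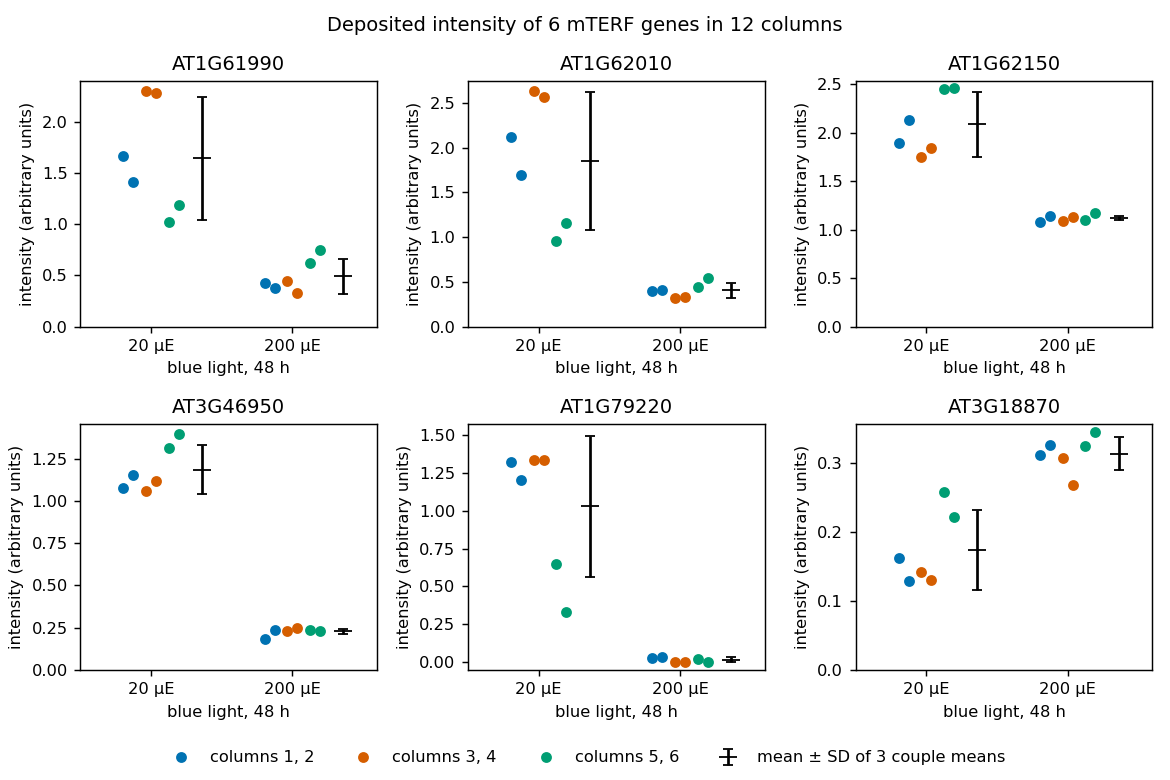
Deposited intensity (arbitrary units) of the 6 mTERF genes in each of the 12 columns, coloured by couple of neighbouring columns, with the mean ± SD of the 3 couple means per group in black. AT1G79220 lies at or below 0.036 units in all 200 µE columns, and AT3G18870 is the one gene whose 200 µE columns all lie above its 20 µE columns.

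AT1G79220 gave the largest difference of the 6. At 20 µE it measured between 0.334 and 1.33 units with a median of 1.26, and at 200 µE between 0 and 0.036 units with a median of 0.013. Columns 4 and 6 at 200 µE were listed at 0, and column 3 was at 0.0024 units. The couple means were 1.26, 1.33 and 0.492 units at 20 µE, so that columns 5 and 6 were dimmer than the others in that group. In percentile the gene went from between 43.6 and 85.1 to between 8.49 and 21.6, the latter within or just above the zeros of the columns.

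On the quantile-normalised log2 scale AT1G79220 changed by -4.62 ± 0.59 (SE over 12 columns, adjusted p = 0.0001; ± 0.73 over couple means, adjusted p = 0.020). It was lower under each scaling, by -6.17 without normalisation and -4.81 under median centring. No fold is given, because 2 of the 200 µE columns were at 0 and the size of the log2 change rests on the floor set for low values. When couples were compared pair by pair, with the couple number as a block, the call was lost (adjusted p = 0.057), and it was regained there without the 116 features at 0 in all columns (0.026). It was also lost over couple means when any one couple was left out: adjusted p was 0.129 without columns 1 and 2, 0.141 without columns 3 and 4 and 0.076 without columns 5 and 6.

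AT3G46950 separated the groups by a wide gap with little spread at 200 µE. It measured between 1.06 and 1.39 units at 20 µE (median 1.14) and between 0.182 and 0.246 units at 200 µE (median 0.234). The couple means fell from 1.19 ± 0.146 to 0.227 ± 0.016 units (SD, n = 3 couples), a ratio of 5.22, and the dimmest 20 µE column was 4.31 times the brightest 200 µE column. The 3 couples gave ratios of 5.32, 4.57 and 5.80. Its percentile went from between 75.3 and 90.8 to between 45.6 and 58.2.

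The log2 change of AT3G46950 was -1.46 ± 0.22 over 12 columns (limma, adjusted p = 0.00033) and -1.46 ± 0.33 over couple means (0.044). It was -2.38 without normalisation and -1.03 under median centring, and passed under both over couple means (adjusted p = 0.00064 and 0.029). With the couple number as a block adjusted p was 0.061, and 0.037 there without the features at 0 in all columns. Over couple means the call was lost without columns 1 and 2 (0.250) and without columns 3 and 4 (0.176), but not without columns 5 and 6 (0.041).

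The neighbours AT1G61990 and AT1G62010 behaved alike across columns. AT1G61990 measured between 1.02 and 2.30 units at 20 µE (median 1.53) and between 0.331 and 0.752 units at 200 µE (median 0.432). AT1G62010 measured between 0.958 and 2.63 units at 20 µE (median 1.90) and between 0.314 and 0.543 units at 200 µE (median 0.404). In both genes columns 3 and 4 were the brightest of the 20 µE group and columns 5 and 6 the dimmest, whereas at 200 µE columns 5 and 6 were the brightest. Between these genes Pearson's r was 0.977 over the 6 columns at 20 µE and 0.852 over the 6 at 200 µE, a description over columns that share couples. Within a group a high r was not particular to these neighbours. With AT1G62010, AT1G79220 gave 0.871 at 20 µE but 0.076 at 200 µE, and AT3G18870 gave -0.847 at 20 µE but 0.826 at 200 µE.

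Because the couples ran in opposite order in the groups, the size of the difference varied from couple to couple. For AT1G61990 the ratio of 20 µE to 200 µE was 3.81 in columns 1 and 2, 5.94 in columns 3 and 4, and 1.61 in columns 5 and 6. For AT1G62010 these ratios were 4.71, 8.07 and 2.16. Every couple was thus lower at 200 µE in both genes, but least so in columns 5 and 6, which had the lowest medians of their groups (0.401 and 0.406 units at 20 µE, 0.171 for both at 200 µE). The part of those medians in the smaller difference was not tested.

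Over 12 columns the log2 change of AT1G61990 was -1.24 ± 0.26 (limma, adjusted p = 0.0027), and over couple means it missed the threshold (± 0.38, adjusted p = 0.084). AT1G62010 differed by -1.63 ± 0.28 over 12 columns (adjusted p = 0.00068) and missed the threshold narrowly over couple means (± 0.40, 0.052). That call was gained under 6 of 14 other settings, as when features listed at 0 throughout were left out (adjusted p = 0.036), and when columns 5 and 6 were (-2.13, 0.043). It was not gained without columns 1 and 2 (limma, adjusted p = 0.310) or without columns 3 and 4 (0.239). Nor was it with the couple number as a block (0.135) or under median centring (0.097). Under median centring the changes were smaller, at -0.37 for AT1G61990, which did not pass even over 12 columns (adjusted p = 0.21), and -0.76 for AT1G62010, which did (0.0093).

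The direction of AT1G62150 depended on the scaling. In deposited units it measured between 1.75 and 2.46 at 20 µE (median 2.01) and between 1.07 and 1.18 at 200 µE (median 1.12), and the couple means were 2.09 ± 0.338 and 1.12 ± 0.017 units. This ratio of 1.86 was smaller than the difference between the column medians of the groups. The gene kept a high percentile in both, at 89.8 to 96.1 and 86.8 to 89.0, groups that nearly touched. After quantile normalisation it differed by -0.73 ± 0.19 (adjusted p = 0.0075 in limma's fit over 12 columns and 0.128 in that over couple means) and -0.88 without normalisation, but 0.47 under median centring (adjusted p = 0.052 over 12 columns). Without normalisation the median change of all features was -1.46, and relative to that AT1G62150 stood 0.58 higher. No direction is therefore given for this gene.

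AT1G62150 and AT3G46950 had their couples in the same order at 20 µE, with columns 5 and 6 the brightest (2.46 and 1.36 units) and columns 3 and 4 the dimmest (1.79 and 1.09). That is the reverse of the order seen in AT1G61990 and AT1G62010. At 20 µE Pearson's r with AT1G62010 was -0.981 for AT1G62150 and -0.890 for AT3G46950, again over 6 columns that share couples. At 200 µE the couple means of AT1G62150 were 1.11, 1.11 and 1.14 units and showed almost no such order.

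AT3G18870 was the one gene of the 6 that measured higher at 200 µE. It lay between 0.129 and 0.258 units at 20 µE (median 0.152) and between 0.268 and 0.344 units at 200 µE (median 0.317). The couple means were 0.173 ± 0.057 and 0.313 ± 0.024 units, a ratio of 1.81 in favour of 200 µE, with 2.19, 2.12 and 1.40 in the 3 couples. The groups came close, since the dimmest 200 µE column was 1.04 times the brightest 20 µE column. In percentile the gene moved from between 17.2 and 34.5, not far above the zeros, to between 57.4 and 67.3.

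The size of the change in AT3G18870 depended on the scaling, while its direction did not. It was 3.13 ± 0.52 on the log2 scale after quantile normalisation (limma, adjusted p = 0.00059 over 12 columns), 2.26 under median centring, 0.90 without normalisation and 2.63 with a pseudocount of 0.0138 units in place of the floor. Relative to the median of all features the change without normalisation was 2.37. Over couple means adjusted p was 0.052 after quantile normalisation. It was 0.032 there once features listed at 0 throughout were left out, 0.0045 under median centring, 0.046 without normalisation and 0.039 with the pseudocount. Without columns 1 and 2 adjusted p over couple means was 0.309, without columns 3 and 4 it was 0.258, and without columns 5 and 6 it was 0.019, with a change of 3.72. At 20 µE columns 5 and 6 were the brightest for this gene, at a mean of 0.239 units against 0.145 and 0.136 in the other couples.

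**Figure D2:**
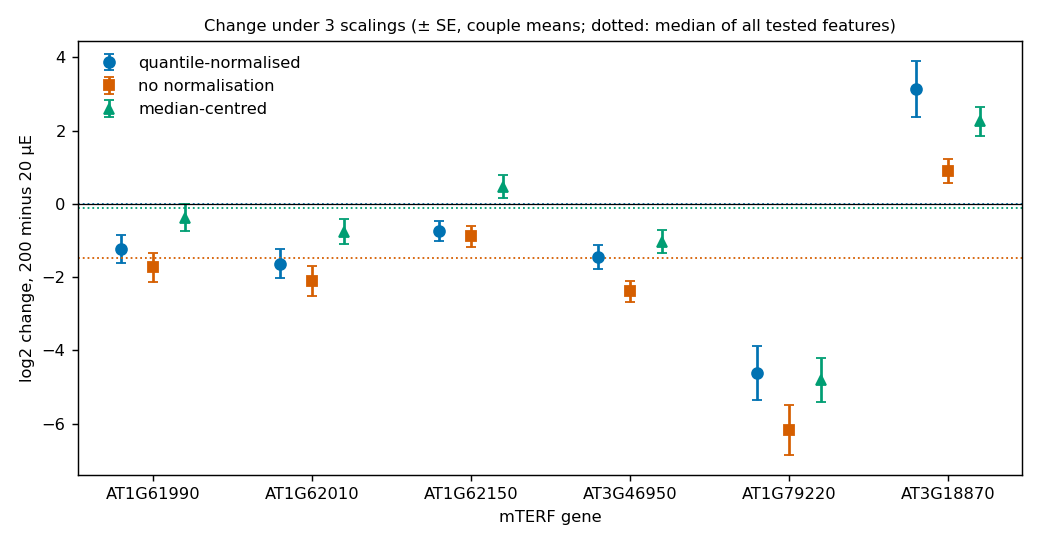
Log2 change from 20 µE to 200 µE of each mTERF gene (± SE over couple means) after quantile normalisation, without normalisation and after median centring, with the median change of all 1561 features under each scaling as a dotted line. The sign of the change turns for AT1G62150 alone (-0.73, -0.88 and 0.47), and the order of AT1G79220 as lowest and AT3G18870 as highest holds under all 3.

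**Figure D3:**
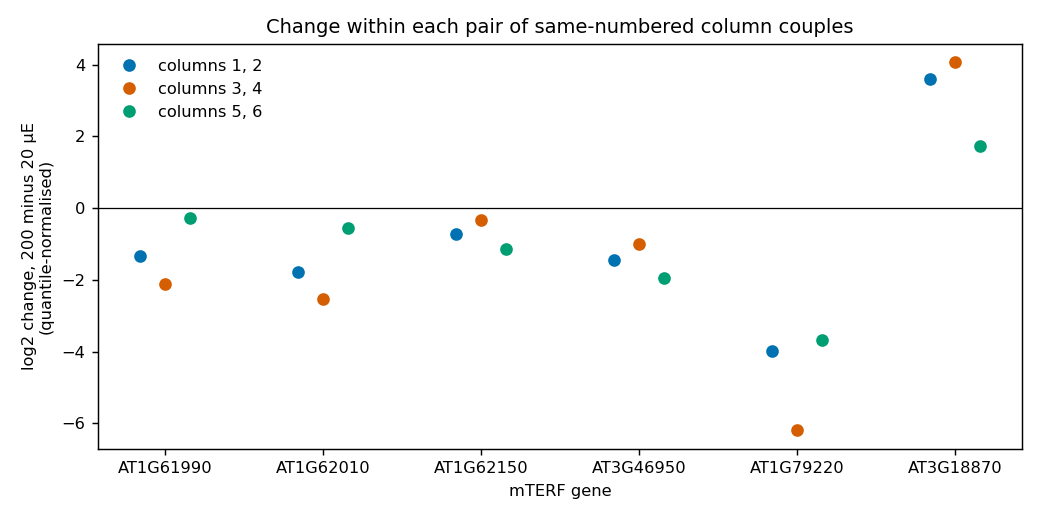
Quantile-normalised log2 change of each mTERF gene within the 3 couples of same-numbered columns. All 3 couples lie on one side of 0 for each gene, from -0.28 to -2.11 for AT1G61990 and from 1.73 to 4.06 for AT3G18870.

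The log2 ratio of 2 genes within a column, taken before normalisation, is not altered by a factor applied to the whole column, as in median centring, whereas quantile normalisation does alter it. Of the 15 pairs among the 6 genes, 10 had log2 ratios whose 20 µE and 200 µE columns did not overlap, against 43.2% of all pairs of single genes that were above 0 somewhere. The ratio of AT1G62150 to AT3G46950 shifted by 1.50 on the log2 scale, from 0.81 ± 0.08 to 2.31 ± 0.10 (SD, n = 3 couples), so that at 200 µE AT3G46950 was lower relative to AT1G62150 within columns. After quantile normalisation that shift was 0.73. The ratio of AT3G18870 to AT3G46950 shifted by 3.29, from -2.82 ± 0.27 to 0.46 ± 0.18, and by 4.59 after quantile normalisation. Between AT1G61990 and AT1G62010 the shift was 0.38, with ratios of -0.14 ± 0.19 and 0.24 ± 0.25 and overlapping columns. The columns overlapped also for AT1G61990 against AT1G62150 and against AT3G46950, and for AT1G62010 against the same 2 genes. Each of the 5 ratios with AT1G79220 separated the groups, with sizes that rest on its floor, although after quantile normalisation its columns against AT3G46950 overlapped.

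The rest of the family was covered in part. A list of 36 Arabidopsis mTERF genes had 19 named by at least 1 of 14 probes, 8 of them alone. The 2 further genes with a probe of their own, AT5G55580 and AT4G09620, did not pass by either test after quantile normalisation. AT5G55580, a plastid mTERF protein known to act in chloroplast ribosome assembly, measured 0.879 ± 0.263 units at 20 µE and 0.513 ± 0.011 units at 200 µE. Its log2 change was 0.11 ± 0.12 after quantile normalisation (limma, adjusted p = 0.50), -0.74 without normalisation and 0.62 under median centring, so that its direction followed the scaling. The latter 2 passed over 12 columns (adjusted p = 0.0032 and 0.0020) but not over couple means (0.087 and 0.084). AT4G09620 measured 1.73 ± 0.305 and 1.20 ± 0.540 units with overlapping columns (-0.36 ± 0.29, adjusted p = 0.36). Its direction also followed the scaling, at -0.60 without normalisation and 0.76 under median centring. Both of these passed over 12 columns (limma, adjusted p = 0.038 and 0.049) but not over couple means (0.209 and 0.195).

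Another 6 probes were each assigned to several mTERF genes, of which 3 were lower over 12 columns, against 26.3% of all features. Averaged by couple, 0 of these 6 passed limma's test, against 20.6% of all features, and 1 had an unadjusted p below 0.05. The one with the smallest p, shared by AT1G78930 and AT5G55580, measured 0.682 ± 0.027 units at 20 µE and 0.152 ± 0.015 units at 200 µE, and differed by -0.90 ± 0.18 on the log2 scale (adjusted p = 0.0021 in limma's fit over 12 columns and 0.071 in that over couple means). Both probes shared by AT1G61970 and AT1G61980 were lower over 12 columns, by -0.59 and -0.95 (adjusted p = 0.039 and 0.024). Under median centring the first of these was at 0.02, so that no direction is given for it. A probe shared by AT1G21150, AT5G07900 and AT5G64950 was listed at 0 in all columns.

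The probe assigned to AT1G61990 and AT3G46950 together with AT1G61960 and AT1G62490 bears on how far the single-gene probes can be told apart. Its couple means at 20 µE were 1.20, 1.94 and 0.826 units, in the order seen for AT1G61990 (1.53, 2.29 and 1.10) and not in that of AT3G46950 (1.12, 1.09 and 1.36). That order was not particular to AT1G61990. AT1G62010 (1.90, 2.60 and 1.06) and AT1G79220 (1.26, 1.33 and 0.492), which this probe does not name, had it too. Pearson's r with the probe was 0.996 for AT1G61990 and 0.965 for AT1G62010 at 20 µE, and 0.330 and -0.040 at 200 µE. At 200 µE they were 0.658, 0.709 and 0.698 units. Its log2 change was -0.33 ± 0.23 (limma, adjusted p = 0.26), against -1.24 and -1.46 for the single-gene probes, and it was 0.50 under median centring. Family members of similar sequence could share a probe, and no probe sequence was used here, so the part of such sharing in the values of AT1G61990, AT1G62010, AT1G62150 and AT3G46950 was not tested.

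**Figure D4:**
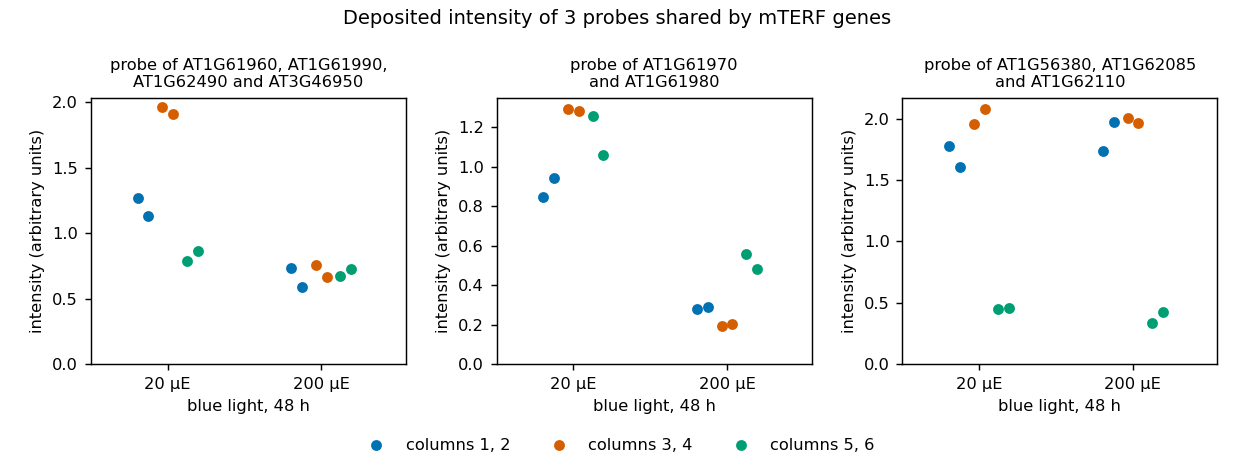
Deposited intensity (arbitrary units) in the 12 columns of 3 probes that the annotation assigns to several mTERF genes, coloured by couple. The left probe follows the couples' order of AT1G61990 at 20 µE, an order that AT1G62010 and AT1G79220 share. The right probe lies near 0.4 units in columns 5 and 6 of both groups and above 1.6 units in all other columns.

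Among the 507 or 508 other single genes above 0 in every column, those with the most similar normalised log2 profile over the 12 columns were named for each gene. For AT1G61990 they were AT1G62010 (Pearson's r = 0.963) and AGL103, a MADS-box transcription factor gene (0.962). For AT1G62010 they were AGL103 (0.974) and AT2G32040, a folate transporter of the chloroplast (0.974). AT3G46950 was most like AT5G53930 (0.991) and AT2G25870 (0.968), and AT1G62150 most like AT1G35510 (0.984) and AT4G19430 (0.970). AT1G79220 was most like AT1G01250 (0.974) and AT2G20920 (0.957). Its columns 3, 4 and 6 at 200 µE were tied at the floor (-6.24 on the log2 scale), so these r rest partly on the floor. AT3G18870 was most like AT2G21720 (0.984) and AT2G28660 (0.983), which were likewise higher at 200 µE, with log2 changes of 2.28 and 1.54. Between 15 and 32 genes had an r above 0.9 with each of the 6, and these likenesses are a description over columns that share groups and couples.

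The partners of the family in organelle gene expression were not covered. None of the 9 organelle RNA polymerase and sigma factor genes, 13 proteins associated with the plastid-encoded polymerase and 7 organelle RNA processing enzymes listed had a probe of its own or a shared one. The same held for 5 root and 5 seed marker genes, so the tissue could not be checked against markers.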

How the data were processed

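Total RNA of 12 samples (6 per group by their titles) was measured on arrays, and the deposited table holds linear intensity in arbitrary units. How the authors labelled, background-corrected and scaled it, and on which genome build, is not given in the sources used here. The annotation named 1 gene for 692 of the 3439 probes and several for 870, and left 1877 unlisted; 690 of 692 identifiers matched the TAIR10.1 gene table. No coordinates are given.

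All values under the 1st percentile of a column's positive values (0.0040 to 0.047 units), zeros included, were set to it. Quantile normalisation of the log2 values used every probe. The 1561 features were tested, as 200 µE minus 20 µE, with limma 3.58.1 (lmFit, eBayes; two-sided, Benjamini-Hochberg) in R 4.3.3, after tests on simulated data. The number of arrays limits precision. Same-numbered columns deviated from their group means together (r = 0.170 to 0.552 for the 6 pairs). No such r is given for differently numbered columns of the groups, so whether the number pairs columns was not tested. No label says what the number stands for. The main fits therefore leave the number out, and fits with it as a block are given beside them. Within groups, couples of neighbouring columns deviated together (0.264 to 0.821, other columns at most 0.162). The genes, lists and tests were chosen with earlier results of these data known. Genes other than the 6 were named by rule, as the most similar profiles; the remaining mTERF probes were added after their values were seen.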

Additional observations from a re-analysis of the deposited data

Results flagged for a closer look

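In sets of 6 columns, 1 of 24 held a column apart from the others, against 1.2 that chance gives at 1 in 20. AT3G46950 measured 0.182 units in column 1 at 200 µE, below the 0.230 to 0.246 units of the other 5 columns there. After quantile normalisation that column was still the lowest of the group, at -1.90 against -1.57 to -1.31 on the log2 scale, but was not flagged.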

How the results depend on the processing

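Over 12 columns 6 mTERF genes passed under every setting except median centring (4, with 1082 of all 1561 features, 511 higher and 571 lower). They passed also with the replicate number as a block, which gave 846 features in place of 772 (limma, adjusted p from 0.00097 to 0.022 for the 6 genes). That block counts the columns of a couple as separate pairs, although they deviated together. With the couple number as a block 0 genes passed over couple means. AT1G62150 was reversed under median centring, at 0.47 over 12 columns and over couple means. Without normalisation 1179 features passed over 12 columns (113 higher, 1066 lower, against 361 and 411).

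Over couple means the counts depended on the setting. In place of 2 genes and 322 features, 6 and 972 (70 higher, 902 lower) passed without normalisation, and 3 and 832 under median centring. The counts were 4 genes and 353 features with a pseudocount, 5 and 352 without dim features, 4 and 397 without features at 0 in all columns, and 4 and 342 with a variance trend. With the couple number as a replicate block 0 genes (limma; 4 at an unadjusted p under 0.05) and 242 features passed, and at a threshold of 0.01, 0 genes (6) and 85 features. Leaving out a couple gave 0 to 3 genes and 1 to 277 features; these fits compare 2 couples per group. The cause was not tested, except that fewer features or couples entered some fits. Raising only zeros to the floor, chosen after the data were seen, gave 2 genes. Of 216 single-gene results under other settings 186 kept direction and call, or the lack of a call, 10 lost the call, 18 gained it and 2 were reversed. Of the 10 losses 5 were of AT1G79220 and 4 of AT3G46950 over couple means, each out of 14 settings. Values at 0 or near the floor limit the sizes given for AT1G79220 and AT3G18870.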

Other observations

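The probe shared by the mTERF genes AT1G56380, AT1G62085 and AT1G62110 differed between couples far more than between light levels. Its couple means were 1.69, 2.02 and 0.453 units at 20 µE and 1.85, 1.99 and 0.379 units at 200 µE. Columns 5 and 6 were thus the dimmest by a wide margin in both groups, and the log2 change between light levels was 0.29 ± 0.57 (limma, adjusted p = 0.75). AT4G09620 showed the opposite: columns 5 and 6 were its brightest couple in both groups, at 2.08 units against 1.62 and 1.50 at 20 µE and at 1.83 units against 0.922 and 0.860 at 200 µE.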
